A study of Equus caballus with 26 samples.

Results

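The genes described are genes of basophils and eosinophils, the 2 rarest granulocytes of the blood, though FCER1G and FCER1A are also found in other blood cells. They are the 3 chains of the high-affinity IgE receptor (MS4A2, FCER1A and FCER1G) and the basophil and mast cell genes HDC, GATA2 and CPA3. IL5RA, CCR3, EPX and PRG2 are the eosinophil genes of the list. Of these 10 named genes, 9 could be matched to a probe among the 24415 gene names of the array, and CPA3 was not analysed here. The match was by the array's gene name for MS4A2, FCER1A, FCER1G and GATA2, and by the gene description for HDC, IL5RA, CCR3, EPX and PRG2. No PRG2 entry was found by name, and the brightest of 3 entries described as bone marrow proteoglycan-like stands for it, called PRG2-like below. The list was chosen by the measured difference between after and before the ride in the experimental set, in which MS4A2 and FCER1A were already known to be lower, so the values of that set are a description without a test, and the tests are those of the validation set, which held other horses.

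Whole blood mRNA of Arabian or half-breed Arabian horses entered in rides of 160 km was hybridised to 26 one-colour arrays, from 23 horses. The experimental set held 3 geldings (horses 2, 32 and 41) drawn both at rest before the start (T0) and directly after the finish (T1). The validation set held 7 horses at T0 (3 females and 4 geldings) and 13 others at T1 (3 females and 10 geldings). The horses took part voluntarily and were sampled under ride conditions with no unexercised group, their ages were not used here, and in the validation set the T1 horses had all finished, whereas most of the T0 horses of the wider cohort were later stopped at a veterinary check. In whole blood fewer cells of a type and less RNA per cell cannot be told apart.

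Basophils and tissue mast cells carry the complete IgE receptor: the alpha chain FCER1A binds IgE, the beta chain MS4A2 amplifies the signal, and the gamma chain FCER1G passes it on and also serves other Fc receptors of monocytes, neutrophils and NK cells. FCER1A is also made by some dendritic cells and monocytes. Eosinophils depend on interleukin 5, sensed through IL5RA, and follow eotaxins through CCR3, a receptor that basophils share, whereas the mRNAs of their granule proteins EPX and PRG2 are made mostly while the cell matures in bone marrow. Glucocorticoids and adrenaline released in exertion are known to lower the number of basophils and eosinophils in the blood.

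The probe sequences decide what each measurement can say, since a single 60-base oligonucleotide stands for each gene. They are given 5′ to 3′ from the array's own annotation, whose header names the build EquCab1 (chrUn is sequence not placed on a chromosome). For the 3 receptor chains only the first 30 bases are shown, and the coordinates are those annotated for the whole probe. The interval annotated for FCER1G is shorter than its 60-base probe. In the probes of HDC and PRG2-like, capitals mark the bases shared by all probes of that gene.
MS4A2, chr12:10313878-10313937, plus strand, first 30 bases: caagctctttgtttaaggggctacaggcaa
FCER1A, chrUn:171535243-171535302, plus strand, first 30 bases: cacggctttgcagaattgcatcattaaact
FCER1G, chrUn:308854250-308854305, minus strand, first 30 bases: aactcacagtaaacaatggaaagagagtac
HDC, chr1:137212596-137212655, plus strand: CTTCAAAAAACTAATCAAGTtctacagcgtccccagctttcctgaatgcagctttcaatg
GATA2, chr16:1124847-1124906, minus strand: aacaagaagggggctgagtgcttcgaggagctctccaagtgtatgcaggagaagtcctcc
IL5RA, chr16:12827790-12827849, plus strand: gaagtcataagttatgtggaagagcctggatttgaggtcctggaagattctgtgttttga
CCR3, chr16:40511856-40511915, minus strand: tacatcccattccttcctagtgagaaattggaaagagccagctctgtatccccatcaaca
PRG2-like, chrUn:243216589-243216648, minus strand: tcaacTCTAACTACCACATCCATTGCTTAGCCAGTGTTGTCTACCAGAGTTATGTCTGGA
EPX, chr11:31208647-31208706, plus strand: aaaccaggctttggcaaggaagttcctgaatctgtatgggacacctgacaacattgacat

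Levels below are log2 processed signals minus the 75th percentile of the same array, so that 0 is the signal which 75% of the probes did not exceed, and they compare arrays for 1 probe, never 1 probe with another. An array counts as detecting a gene where the scanner software flagged its spot as well above background. The arrays flagged between 60.4% and 75.4% of their probes, and precision is set by how few arrays each group has. FCER1A, FCER1G, HDC and CCR3 were detected on all 26 arrays, PRG2-like on 23, and IL5RA on 3 of 3 T0 and 1 of 3 T1 arrays of the experimental set and on 5 of 7 T0 and 4 of 13 T1 arrays of the validation set. MS4A2 was detected on all 10 T0 arrays and on none of the 16 T1 arrays. GATA2 was detected on 7 arrays and EPX on 1 array, that of horse 7 at T1.

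The beta chain MS4A2 showed the clearest separation of the times. In the experimental set its level at T0 was -1.53 in horse 2, -3.81 in horse 32 and -3.46 in horse 41, and at T1 it was -8.41, -8.10 and -7.37 in the same horses. Every T1 value lay below every T0 value, and horse 2 had the highest level at rest. The T1 values have no order among themselves, since none was well above background. In the validation set the T0 levels ran from -3.81 to -2.32 with a median of -3.17, and the T1 levels from -8.78 to -7.09 with a median of -7.54. These ranges did not overlap either.

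Because no T1 array detected MS4A2, the fall has only a lower bound, taken against the dimmest probe detected on every one of its spots on each T1 array or against the signal of MS4A2 itself where that was higher. After the ride it was at least 8.30-fold lower in the experimental and at least 6.36-fold lower in the validation set. The measured mean of the validation set was -3.14 (SD 0.56, n = 7) before and -7.68 (SD 0.48, n = 13) after, a difference of -4.54 with a standard error (SE) of 0.23 on the log2 scale (limma, adjusted p = 4.45e-11). MS4A2 entered the test through its T0 arrays alone, since the filter asked for detection on 7 of 20 arrays and exactly the T0 arrays detected it, so it had to differ, and this p adds nothing to the detection counts. With another background correction (normexp with an offset of 50, then quantile normalization) the difference shrank to -0.96 on the log2 scale (adjusted p = 1.03e-07 in limma, and from 1.18e-12 to 1.53e-07 over its 29 alternatives), so the size of a fall that ends below background depends on how background is treated.

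The alpha chain FCER1A, read by 3 probes, was bright enough to be measured at both times. At T0 the level was 4.58 in horse 2, 1.52 in horse 32 and 2.71 in horse 41, and at T1 it was -0.59, -0.83 and -1.09. The 3 horses lay close together after the ride and far apart before it, with no overlap between the times. The difference in the experimental set was -3.77 (SE 0.50) on the log2 scale, a 13.7-fold lower mean. In the validation set the levels ran from 1.91 to 3.70 with a median of 3.13 at T0 and from -2.33 to 0.31 with a median of -0.68 at T1, without overlap. FCER1A fell 13.4-fold there, a difference of -3.74 (SE 0.34) on the log2 scale (limma, adjusted p = 3.83e-07), and ranked 6 from the lowest difference of 17402 gene names. Its 3 probes differed little, with validation-set differences from -3.74 to -3.64 on the log2 scale, and the difference was between -3.92 and -3.36 on the log2 scale under the 30 alternatives tried.

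**Figure D1:**
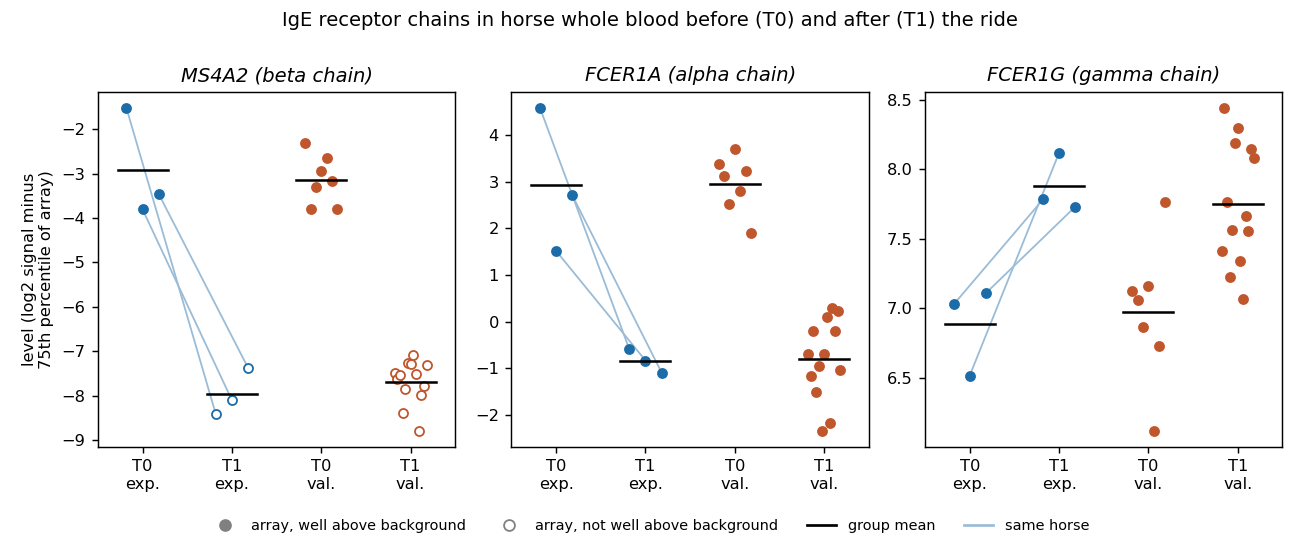
Levels (vertical axis, log2 signal minus the 75th percentile of the array) of the 3 IgE receptor chains, 1 point per array, in the experimental set (blue, lines join the same horse) and the validation set (orange) at T0 and T1, with open points for arrays that did not detect the gene and a black bar for the group mean. MS4A2 and FCER1A were lower on every T1 array than on any T0 array of the same set, and FCER1G was higher on average, from 6.97 at T0 to 7.75 at T1 in the validation set.

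The gamma chain FCER1G went the other way. Its level at T0 was 7.03 in horse 2, 6.51 in horse 32 and 7.11 in horse 41, and at T1 it was 7.78, 8.12 and 7.73, so that every T1 value of these horses lay above every T0 value, with a difference of 0.99 (SE 0.34) on the log2 scale. In the validation set it ran from 6.12 to 7.76 with a median of 7.06 at T0 and from 7.07 to 8.44 with a median of 7.66 at T1. These ranges overlapped, yet FCER1G rose 1.71-fold, by 0.77 (SE 0.21) on the log2 scale (limma, adjusted p = 0.00538). All 16 of its probes gave a difference above 0 in both sets, from 0.70 to 1.06 on the log2 scale in the validation set. The 3 chains of the receptor thus did not move together in whole blood: MS4A2 and FCER1A fell, and FCER1G rose.

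CCR3, the eotaxin receptor of eosinophils and basophils, was detected on every array. It went from -1.19 to -3.64 in horse 2, from -0.40 to -3.89 in horse 32 and from -2.20 to -2.71 in horse 41. The T1 values lay below all T0 values, but horse 41 moved by only -0.51 on the log2 scale, against -2.45 in horse 2 and -3.50 in horse 32. Among the validation horses CCR3 ran from -2.83 to -0.70 with a median of -2.06 at T0 and from -4.02 to -2.55 with a median of -3.32 at T1. The ranges overlapped by 0.28 on the log2 scale, and CCR3 fell 2.71-fold, by 1.44 (SE 0.26) on the log2 scale (limma, adjusted p = 0.000195). It passed the test under all 30 alternatives tried, with a difference of -0.70 on the log2 scale with normexp and quantile normalization at the smallest and of -1.80 with scan day as a term at the largest.

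IL5RA, the chain that gives the interleukin 5 receptor its specificity, was close to the limit of detection. Its T0 levels in the experimental set were -4.12 in horse 2, -3.78 in horse 32 and -5.35 in horse 41, and its T1 levels were -6.45 and -6.06, both not well above background, and -5.25 in horse 41, which alone of the 3 was not lower. Across the validation horses IL5RA ran from -6.45 to -4.33 with a median of -5.48 at T0 and from -7.97 to -5.00 with a median of -6.21 at T1. IL5RA fell between ranges that overlapped widely, with a measured difference of -1.06 (SE 0.33) on the log2 scale (limma, adjusted p = 0.0125), whose size is uncertain because 9 of 13 T1 arrays were not well above background. The call was lost with normexp and quantile normalization (difference -0.14 on the log2 scale, limma adjusted p = 0.0883) and with the deposited series values (difference -0.13, adjusted p = 0.120), and adjusted p ran from 0.00034 to 0.120 over the 29 alternatives. Its second probe, detected on 2 of 7 T0 and on no T1 array of the validation set, gave a difference of -0.57 on the log2 scale.

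GATA2, a transcription factor of basophil and mast cell development, was too dim to be tested in the validation set, where it was detected on 2 of 7 T0 and 1 of 13 T1 arrays. Its levels there ran from -6.85 to -5.09 at T0 and from -7.35 to -5.92 at T1, with means of -5.92 and -6.58. In the experimental set the level moved from -4.21 to -6.95 in horse 2 and from -4.58 to -5.79 in horse 32, but from -6.03 to -3.95 in horse 41. The horses did not share a direction, and the value of horse 41 at T1 was the highest of all 26 arrays. That array also held 131 outlier spots, against 3 to 37 on the others, and the part of this in the result was not tested.

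HDC, the enzyme that makes histamine, gave different answers by probe. The brightest of its 3 probes went from -2.27 to -2.83 in horse 2, from -3.21 to -2.68 in horse 32 and from -3.31 to -2.70 in horse 41, so that 1 horse was lower and 2 were higher after the ride. The validation levels ran from -3.65 to -2.49 with a median of -2.89 at T0 and from -3.71 to -2.33 with a median of -2.85 at T1, and the difference was 0.01 (SE 0.21) on the log2 scale, not past the test (limma, adjusted p = 0.974). The second probe, which begins 20 bases upstream, was detected on all 7 T0 arrays and on 7 of 13 T1 arrays of the validation set and had means of -5.18 at T0 and -5.84 at T1. The third, another 20 bases upstream, was detected on 2 T0 arrays and on no T1 array and differed by -0.81 on the log2 scale. All 3 share the bases in capitals above, and with the mean of the 3 probes the difference was -0.49 on the log2 scale, still not past the test (limma, adjusted p = 0.0639, the lowest over 30 alternatives).

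The granule protein genes of eosinophils differed in how often they were detected. PRG2-like was detected on all 10 T0 arrays and on 13 of 16 T1 arrays. Its levels in the experimental set moved from -2.68 to -3.64 in horse 2, from -2.45 to -2.50 in horse 32 and from -3.71 to -3.06 in horse 41. Over the validation arrays it ran from -4.67 to -1.99 with a median of -3.83 at T0 and from -6.09 to -2.33 with a median of -3.66 at T1, and the difference was -0.38 (SE 0.54) on the log2 scale (limma, adjusted p = 0.598). The ranges of the times overlapped widely. EPX, the peroxidase of the eosinophil granule, was not well above background on 25 of 26 arrays, and its level at the 1 array that detected it, horse 7 at T1, was -5.29. No comparison of times was possible for EPX.

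**Figure D2:**
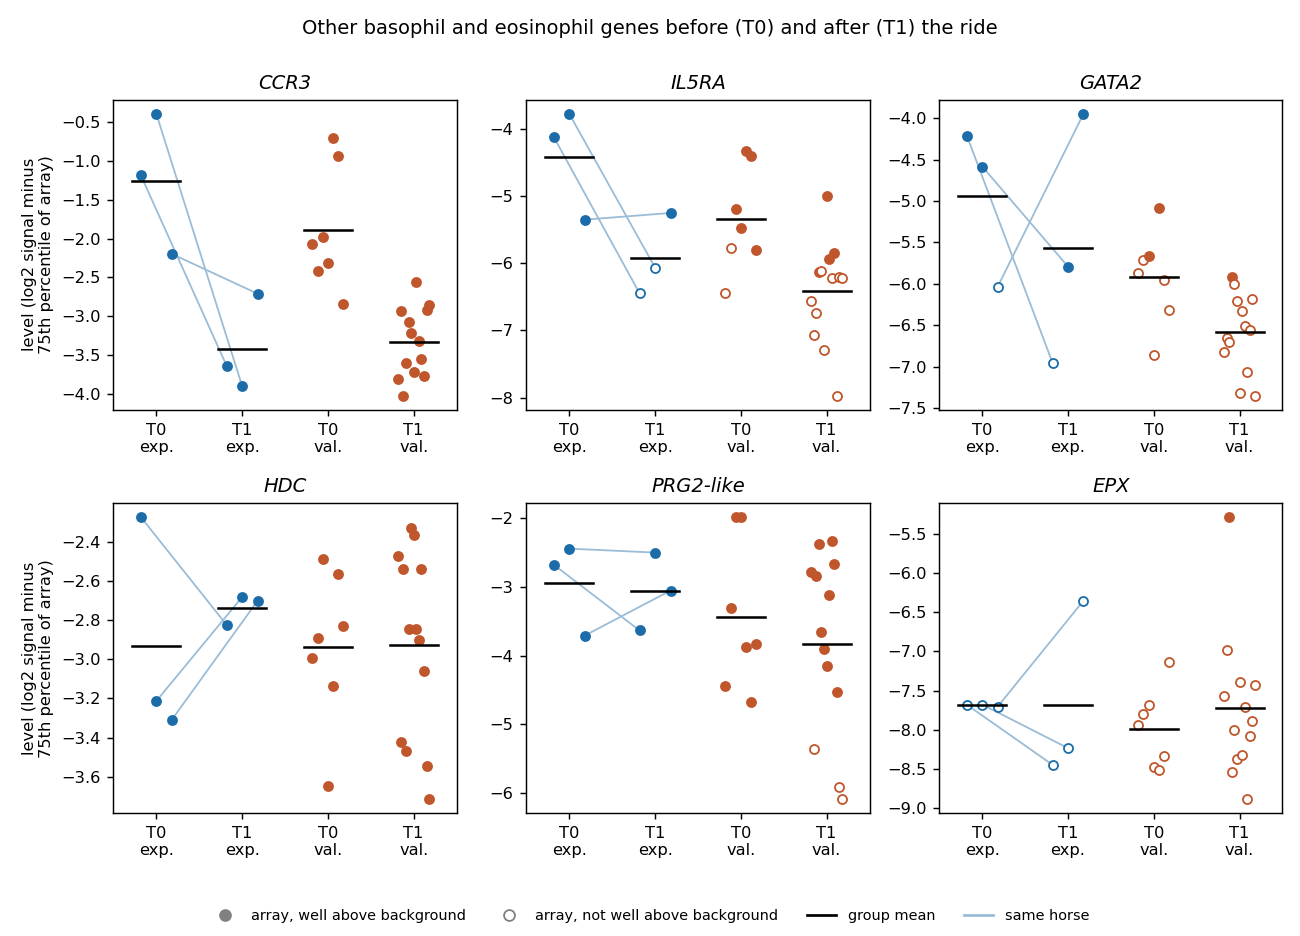
Levels (vertical axes, log2 signal minus the 75th percentile of the array, a separate scale in each panel) of CCR3, IL5RA, GATA2, HDC, PRG2-like and EPX, 1 point per array, with colours, lines, open points and mean bars for sets, horses, arrays without detection and groups. CCR3 fell in both sets, IL5RA and GATA2 were lower at T1 in horses 2 and 32 but not in horse 41, and the validation arrays of HDC and PRG2-like overlapped between the times.

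Of the 9 genes with a probe, 8 passed the filter on dim probes in the experimental set and 7 in the validation set, where GATA2 and EPX were left out. Of the 7, 4 fell (MS4A2, FCER1A, IL5RA and CCR3), 1 rose (FCER1G) and 2 did not pass (HDC and PRG2-like). MS4A2, which had to differ, is one of the 4 and is not support for the count. Of all 17402 gene names tested there, 23.9% were called lower at T1 and 20.3% higher, 44.2% in either direction. Every T1 array was below every T0 array for FCER1A and for MS4A2, whose separation came with its entry to the test, where 0.759% of all gene names tested showed this. Every T1 array was above every T0 array for no member, where 1.45% of all gene names showed this. The median difference was -1.06 on the log2 scale over the 7 tested members, MS4A2 included, and -0.07 over all gene names tested. In the experimental set 3 members were called lower (MS4A2, FCER1A and CCR3) where 3.96% of 17486 gene names were called lower and 6.20% higher, 10.2% in either direction, and T1 lay below T0 without overlap for 3 members and above it for 1, against 17.7% and 17.8% of all gene names, from which nothing is read because that contrast had been seen when the list was made.

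**Figure D3:**
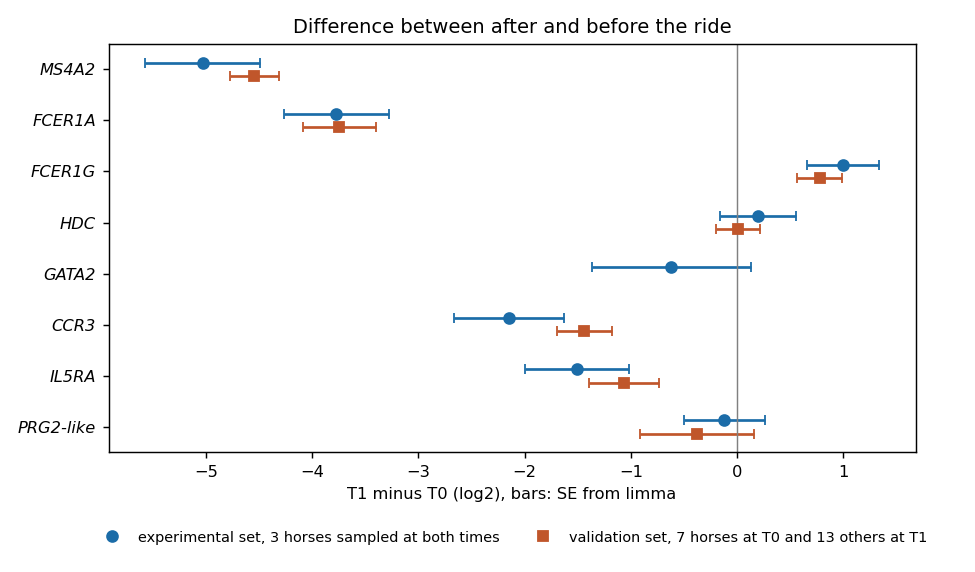
Difference T1 minus T0 (horizontal axis, log2) for the 8 members that could be fitted in at least 1 set, as points with bars of 1 SE from limma, for the experimental set (blue circles) and the validation set (orange squares, no point for GATA2). The validation-set differences ran from -4.54 for MS4A2 to 0.77 for FCER1G, and those of HDC and PRG2-like lay within 1 SE of 0.

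The arrays had been scanned on 8 days, and 5 of the days held validation arrays of both times. Each of these days held only 1 or 2 T0 and 1 to 4 T1 arrays of the validation set. Within each of them MS4A2, FCER1A, CCR3 and IL5RA were lower and FCER1G was higher at T1. The within-day differences ran from -5.36 to -3.45 on the log2 scale for MS4A2, from -4.85 to -3.48 for FCER1A, from -3.01 to -0.58 for CCR3, from -2.03 to -0.67 for IL5RA and from 0.41 to 2.18 for FCER1G. On the 3 slides that held validation arrays of both times the same 5 genes kept these directions. These slides had 1 T0 array each, and their arrays were among those of the same scan days. With scan day as a term in limma the count of called members was 5, as it was with the slide as a random block and with sex as a term. Leaving out any 1 of the 20 validation horses also left 5 members called.

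The other genes of the same cells were read from lists chosen with earlier results of these data known. Of 12 further basophil and mast cell genes tested in the validation set, 5 fell and none rose, with a median difference of -0.37 on the log2 scale. Of all gene names tested there, 23.9% were called lower and 20.3% higher. HRH4, the histamine H4 receptor, fell most, by 2.74 (SE 0.30) on the log2 scale (limma, adjusted p = 2.44e-06), from a median level of -0.01 (lowest -0.99, highest 0.47) at T0 to -3.18 (lowest -3.82, highest -1.94) at T1, without overlap. IL4, a type 2 cytokine, fell by 1.76 (SE 0.29) and CD200R1, an inhibitory receptor of myeloid cells and basophils, by 1.52 (SE 0.25) on the log2 scale. SLC18A2, the transporter that loads histamine into granules, fell by 1.46 (SE 0.33) and IL13 by 0.44 (SE 0.12), and these 2 were named after their values were seen. At T1 IL4 was detected on 6 of 13 and SLC18A2 on 4 of 13 validation arrays, so the sizes of their falls are uncertain. All 10 T cell markers fell in the validation set as well. The part of T cells and other cells in the falls of these 5 genes was not tested. The growth factor receptor gene KIT and the transcription factor gene MITF, both typical of mast cells, were among the 7 that did not pass, with differences of -0.44 and -0.09 on the log2 scale. HPGDS, the prostaglandin D2 synthase of mast cells, was detected on no array. In the experimental set 2 of the same 12 genes were called lower and none higher, where 3.96% of all gene names were called lower and 6.20% higher.

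Of 16 further eosinophil genes listed, only 7 had a probe, so most of the list was not read. Of the 7, all tested in the validation set, none fell and 4 rose, where 23.9% of all gene names were called lower and 20.3% higher. ADGRE1, the gene of the adhesion receptor EMR1, rose by 3.06 (SE 0.34) on the log2 scale (limma, adjusted p = 3.32e-06), from a median level of -3.55 at T0 to -0.13 at T1, without overlap. CSF2RB, the common beta chain that IL5RA pairs with and that other myeloid cells share, rose by 1.38 (SE 0.25), CEBPE, a transcription factor of granulocyte maturation, by 0.97 (SE 0.20), and PRSS33, a serine protease, by 0.65 (SE 0.21) on the log2 scale. PRSS33 was the fourth and was named after its value was seen. PTGDR2, the prostaglandin D2 receptor of basophils and eosinophils, differed by -0.25 on the log2 scale and did not pass. CSF2RB and CEBPE are also expressed in neutrophils and their precursors, whereas ADGRE1 and PRSS33 are known in human blood mainly from eosinophils.

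Downstream of the IgE receptor, 3 of 19 signalling genes fell and 10 rose in the validation set, with a median difference of 0.48 on the log2 scale. The share of all gene names called lower there was 23.9%, above that of these genes, and 20.3% were called higher. LYN, the kinase that phosphorylates the receptor, rose by 1.15 (SE 0.17), the calcium sensor STIM1 by 1.14 (SE 0.26) and the exchange factor VAV1 by 0.91 (SE 0.19) on the log2 scale. Among those that fell were the adaptor LAT, by 1.26 (SE 0.26), and the kinase FYN, by 1.19 (SE 0.17) on the log2 scale, both of which T cells also use. All 9 genes listed as glucocorticoid-responsive rose in the validation set. One of them, NR3C1, is the glucocorticoid receptor itself and rose by 0.49 (SE 0.16) on the log2 scale. The scavenger receptor CD163, which is also in the list of monocyte markers below, rose most, by 4.19 (SE 0.47) on the log2 scale. FKBP5, the receptor co-chaperone, rose by 2.73 (SE 0.33) and DDIT4 by 2.36 (SE 0.32) on the log2 scale. In the experimental set 7 of the 9 were called higher, where 6.20% of all gene names were. KLF9, called in both sets, was detected on 2 T0 and 11 T1 arrays of the validation set. In the experimental set it was detected on 1 T0 and 3 T1 arrays. It met the filters on dim probes through its T1 arrays, where it was higher, so its calls are not support for these counts.

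Markers of the other blood cells moved as well, where 23.9% of all gene names tested in the validation set were called lower and 20.3% higher. Of the neutrophil markers 8 of 10 rose and none fell in the validation set, the highest being IL1R2, MMP8 and S100A8 with 6.13, 3.14 and 3.09 on the log2 scale. Of the T cell markers 10 of 10 fell, led by CD3E, CD4 and CD2 with -1.71, -1.69 and -1.67. Of the B cell markers 7 of 8 fell, led by CD79B, CD79A and CD22 with -1.99, -1.67 and -1.62. Of the monocyte markers 4 of 8 rose, led by CD163 and VCAN with 4.19 and 1.85, and CX3CR1 fell by 1.53. Of the NK cell markers 4 of 7 fell, led by GZMB, NKG7 and PRF1 with -2.30, -1.98 and -1.08, and NCR1 rose by 1.34. HBB and HBA2, the globin genes, rose by 2.25 and 1.73 among 4 erythroid markers tested, and the erythroid markers SLC4A1 and EPB42 were detected on no array.

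The summed level of a marker list is the sum of its signals, each divided by the 75th percentile of the array, in which the brightest probes weigh most. It is given as a description of the lists alone. For the 10 neutrophil markers it ran from 153 to 888 at T0 and from 622 to 2619 at T1 in the validation set, and from 95.1 to 564 and from 913 to 1284 in the experimental set. For the 10 T cell markers it ran from 19.6 to 49.6 at T0 and from 11.8 to 21.8 at T1 in the validation set. Their part in the differences of the members was not tested. Dendritic cells can also carry FCER1A. Of 12 dendritic cell markers listed, 7 had a probe and 6 were tested, so much of the list was not read. None of the 6 tested passed in limma in either set, and none reached an unadjusted p under 0.05. The part of dendritic cells in the fall of FCER1A was not tested. The summed level of the 7 dendritic cell markers with a probe ran from 2.86 to 9.37 at T0 and from 3.31 to 7.01 at T1 in the validation set. Of the 4 platelet markers none passed in limma in either set, and 1 reached an unadjusted p under 0.05 in the experimental set.

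**Figure D4:**
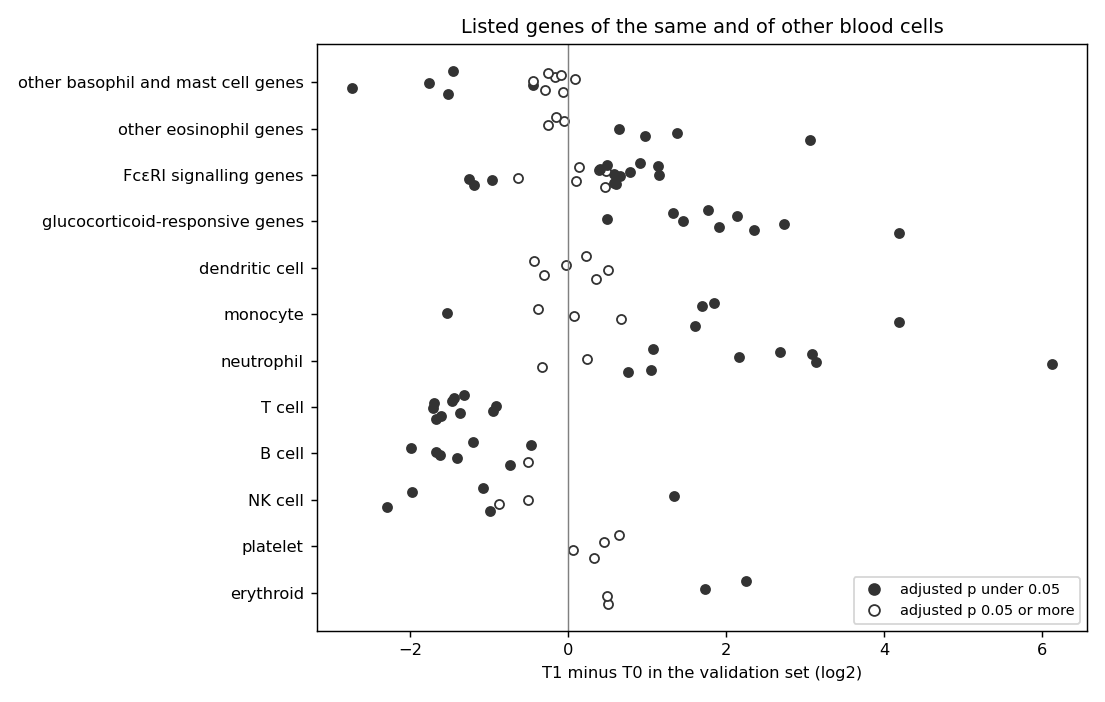
Difference T1 minus T0 in the validation set (horizontal axis, log2) for every tested gene of 12 lists (rows), filled where the limma adjusted p was under 0.05. HRH4 is the lowest point of the basophil and mast cell row at -2.74, ADGRE1 the highest of the eosinophil row at 3.06, and IL1R2 the highest of the neutrophil row at 6.13.

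Before the ride the members varied between horses, and this variation was compared over the 10 horses at T0 for the 6 members detected in all of them, 15 pairs in all. MS4A2 and FCER1A were correlated (Pearson r = 0.80, permutation p = 0.00509, adjusted p = 0.0382, n = 10), although Spearman's rho of 0.71 (permutation p = 0.0271, adjusted p = 0.203) did not pass. Without horses 2 and 13, the farthest from the median of MS4A2, r was 0.58 (permutation p = 0.132, n = 8). Within the 7 validation horses alone, horse 13 among them, it was 0.53 (permutation p = 0.217). Both values were weaker, and neither had a permutation p under 0.05. Leaving out the most extreme horses narrows the range of MS4A2, which by itself can lower r. These values therefore cannot tell which horses the relation rests on. With quantile normalization over all 10 horses r was 0.87 (permutation p = 0.00114, adjusted p = 0.0171) and rho was 0.83 (permutation p = 0.00476, adjusted p = 0.0714). FCER1G and CCR3 were inversely correlated (r = -0.85, permutation p = 0.00062, adjusted p = 0.0093, and rho = -0.89, permutation p = 0.00119, adjusted p = 0.0178, n = 10). Within the validation horses r was -0.91 (permutation p = 0.00111, n = 7) and without horses 29 and 47 it was -0.86 (permutation p = 0.0075, n = 8), but with quantile normalization it weakened to -0.60 (permutation p = 0.0419, adjusted p = 0.315), so that this relation depended on how arrays were scaled. The other 13 pairs had adjusted p of 0.986 for r. The scan days held too few T0 arrays for values within a day.

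**Figure D5:**
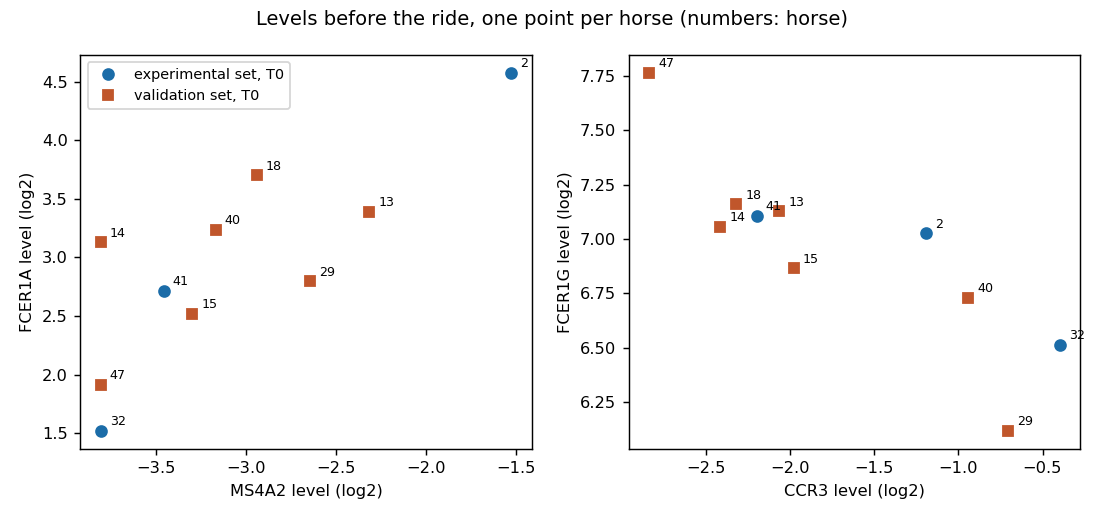
Levels before the ride (log2 signal minus the 75th percentile of the array) of MS4A2 against FCER1A and of CCR3 against FCER1G, 1 point per horse with its number, for the experimental set (blue circles) and the validation set (orange squares). Horse 2 lies far from the others in the first panel, with -1.53 for MS4A2 and 4.58 for FCER1A, and the second panel slopes downward.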

How the data were processed

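Total RNA of whole blood was hybridised to one-colour Agilent horse arrays (43384 probes after control spots were left out). The authors scanned the arrays and deposited processed signal intensity, mean and background intensity, and detection flags per spot, made with Feature Extraction 10.7.3.1 per the file headers, which subtracts background before writing the processed signal. The deposited series table holds log2 values with nearly equal quantiles in every array, read as quantile normalized, with background treatment not given. The labels name limma among the tools, and other steps are not given in the sources used here.

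Outlier spots were left out, spots of a probe averaged, and the 75th percentile of each array subtracted from log2 processed signal. The brightest probe over 26 arrays stood for a gene name. Symbols came from the array, its descriptions or RefSeq accessions and gene IDs of the TB-T2T assembly. T1 was compared with T0 in limma 3.58.1 (R 4.3.3), with the horse as a block in the experimental set (gene names detected on 3 of 6 arrays or more) and without a block in the validation set (7 of 20), and Benjamini-Hochberg adjustment over all gene names at 0.05. The pairing comes from the labels, which give each experimental horse at both times, and the deviations of a horse at T0 and T1 from the group means correlated with r = -0.01, 0.21 and 0.19. Correlations used 100000 resamples, two-sided, in scipy 1.17.1. The fits were tested on simulated data.

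The members and gene lists were chosen with earlier results of these data known. Named were every member, up to 3 genes per list and direction past the threshold in the validation set, list genes detected on no array, and the 5 genes most correlated with MS4A2 at T0, and some genes that this rule names are not reported here. Alternatives were normexp with an offset of 50 and quantile normalization, quantile normalization alone, the deposited log2 values, other filters, the mean of all probes, scan day, slide, sex and each horse left out. The array of horse 34 was scanned in 1 pass and held 431 saturated spots, the only ones in the series.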

Additional observations from a re-analysis of the deposited data

How the results depend on the processing

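The count of validation-set members past the threshold (5 of 7) stayed between 4 and 6 under every alternative tried except the filter that asked for detection on every array, which left 4 members to test and called 3 (FCER1A, FCER1G and CCR3). Without a filter 6 were called, GATA2 being the sixth. In the experimental set the count was 3 with the horse as a block, 3 with no replicate block, and 3 when all 26 arrays were fitted with the horse as a random replicate block. Leaving out a horse gave between 2 and 5 members, the 5 arising when horse 41 was dropped. The arrays of horse 41 moved least or the other way for CCR3, IL5RA and GATA2. Calls over all gene names of the experimental set changed in the same direction, from 1777 with all 3 horses to 2982 after dropping horse 41. Dropping horse 2 gave 173 such calls and dropping horse 32 gave 289, with 2 members called each time. The part of the member genes' own values in these counts was not tested. Without a filter 0 members passed in limma there, where 5 had an unadjusted p under 0.05 and 46 of all gene names passed, and the listed genes of other groups fell from 42 to 2 called. For the correlations at T0, 2 pairs passed, against 1 within the validation horses, 1 with quantile normalization and 0 without the 2 farthest horses, where 1 had an unadjusted p under 0.05. The cause of these changes was not tested. Low signal over background limits what can be read for MS4A2, IL5RA, GATA2 and EPX. With normexp and quantile normalization the validation-set difference was -0.96 for MS4A2, -0.14 for IL5RA and -0.70 for CCR3 on the log2 scale.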

Other observations

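The other 2 entries described as bone marrow proteoglycan-like gave signals near background on most arrays. LOC100630020 was detected in horses 2 and 32 at T0 and in horse 2 at T1, with levels of -5.76 in horse 32 and of -4.92 in horse 2 at T1, and on 1 array at each time in the validation set. LOC100062854 was detected in horses 2 and 32 at T0, with -4.46 and -6.22, in horse 2 at T1, with -5.82, and on 2 of 13 T1 and no T0 array in the validation set. Its highest level of all arrays was -4.16, in horse 1 at T1. Among the 10 T0 arrays both were highest in horse 2, which also had the highest MS4A2 and FCER1A at rest.

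Over the 10 T0 arrays, the 5 gene names with a symbol whose level followed that of MS4A2 most closely, among 15155 detected on all of them, were AKR1A1 (r = 0.87), SEPP1 (r = 0.87), INKA1 (r = 0.86), SHMT2 (r = 0.84) and GCNT2 (r = 0.83). These are the highest of many values, given as a description. After the ride they did not share a direction in the validation set: GCNT2 differed by -2.54 (SE 0.63) on the log2 scale, INKA1 by -0.67 (SE 0.20), AKR1A1 by -0.51 (SE 0.20), SHMT2 by -0.30 (SE 0.13) and SEPP1 by 0.82 (SE 0.26).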
